A study of Homo sapiens with 2 samples.

Results

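The receptors of the epidermal growth factor receptor (EGFR) family, their ligands and the EGFR inhibitor ERRFI1 were described in HARA-B4, a subline of a human squamous cell lung cancer line that forms bone metastases at high frequency, and in HARA, the parental line. The list held 10 genes, namely the receptors EGFR, ERBB2 and ERBB3, the ligands AREG, EREG, HBEGF, TGFA, BTC and EPGN, and ERRFI1. A gene was measured through every probe set to which the platform annotation gives that gene's symbol alone. This found 29 probe sets for 8 of the 10 genes, of 19735 genes named on the array. AREG and EPGN had no such probe set and are not analysed here. Total RNA of cells in culture was hybridised to 1 array for HARA-B4 and 1 array for HARA, with the same serum-containing medium for both lines per the labels. No further treatment is given, and the labels do not say whether HARA-B4 is a single clone.

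Receptors of this family are tyrosine kinases that pair with each other when a ligand binds. EGFR binds all the ligands listed here, HBEGF, BTC and EREG also bind ERBB4, ERBB2 has no known ligand of its own, and ERBB3 has a weak kinase and signals mainly through its partners. The ligands are made as membrane proteins and are released by metalloproteases such as ADAM17, and the released ligand acts on the same cell or its neighbours. In bone, ligands of this family are known to act on cells of the osteoblast lineage, and in squamous epithelium EGFR signalling drives basal cell growth.

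The values are linear signals as deposited. Differences are on the log2 scale, HARA-B4 minus HARA, so that 1 is a doubling. The background level, a signal of 27.2, was set at the 95th percentile of 163 probe sets for chemosensory receptor genes (smell, taste and the vomeronasal organ). The trimmed mean signal was 115.9 in HARA-B4 and 115.6 in HARA, and the ACTB control probe sets gave a ratio of 3' over 5' signal of 1.31 in HARA-B4 and 1.39 in HARA. For the 10202 genes above background on both arrays the middle range of the differences (25th to 75th percentile) spanned -0.27 to 0.28. The within-gene SD of probe set differences was 0.30 over 4829 genes. That spread is between probe sets of 1 gene on the same pair of arrays. It may include real differences between transcripts, and it holds no error between arrays or cultures. With 1 array per line there is no measure of biological spread and no test. All 8 squamous markers with a named probe set were above background on both arrays. By the probe set of highest mean signal their differences lay between -0.98 (the desmocollin DSC3) and 1.82 (the plakophilin PKP1). By those probe sets PKP1 was the only one past 2-fold, and the median was 0.23. DSC3 differed by -1.36 on another probe set, and 1 marker passed 2-fold on the lower side under some of the alternatives given below. Of the markers of other cells, 0 of 4 of fibroblasts, 0 of 2 of bone cells, 2 of 6 of blood and marrow (CD79A and HBB) and 1 of 4 of endothelium (PECAM1) were above background, and those 3 genes differed by -0.20, -0.07 and -0.01. Each of the 3 passed background on 1 probe set only, of 2 for CD79A, 4 for HBB and 5 for PECAM1.

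The members did not differ as a block. EREG was below background in HARA-B4 and well above it in HARA, EGFR was somewhat higher in HARA-B4, and ERBB2, ERBB3 and TGFA were somewhat lower. Of the 7 members above background on at least 1 array, 0 reached 2-fold on the higher side in HARA-B4 and 1, EREG, reached it on the lower side. Over all 11486 genes above background on at least 1 array, 3.62% reached 2-fold on the higher side and 4.21% on the lower side, so a count of 1 in 7 is no result about the family. The median log2 difference of the 7 members was -0.41, against 0.01 over all such genes. The differences were negative for 5 members and positive for 2, and 48.5% of all genes had a negative difference.

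**Figure D1:**
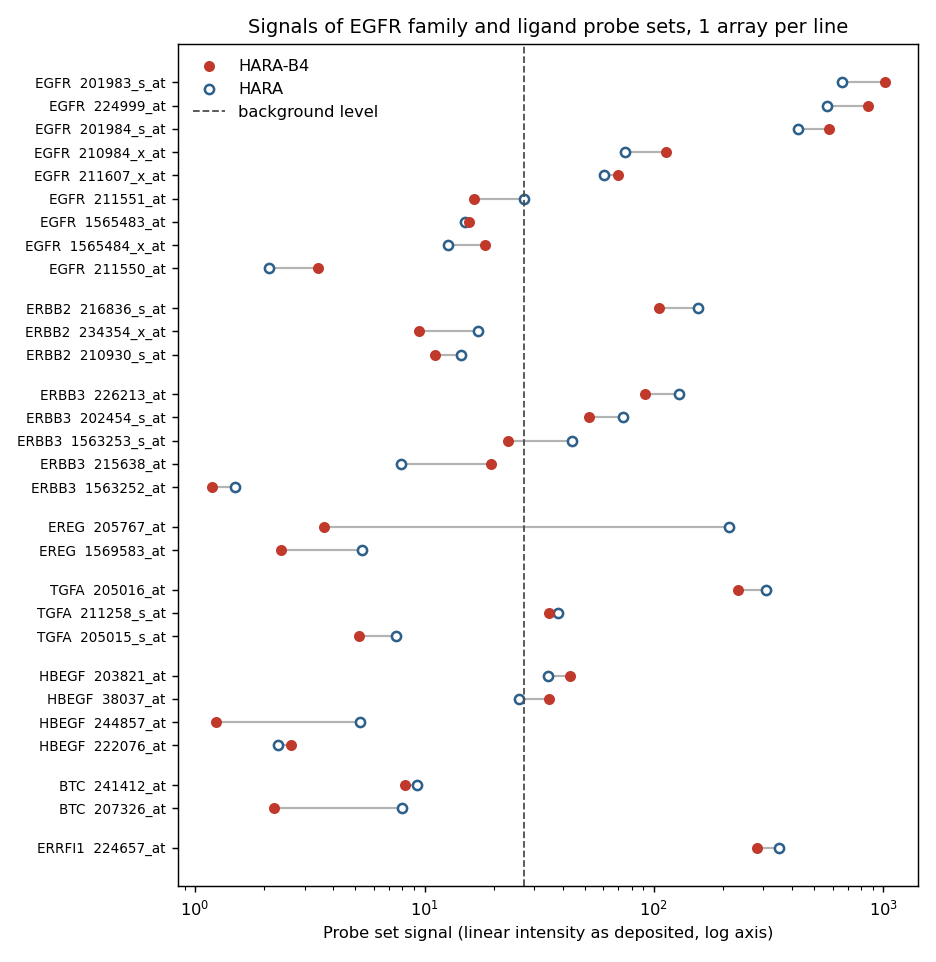
Signal of every member probe set in HARA-B4 (filled) and HARA (open) on a logarithmic axis, with the background level of 27.2 as a dashed line and 1 array per line. The EREG probe set at the top of its group lies at 3.66 in HARA-B4 and 213 in HARA, the widest gap in the plot, and the 5 EGFR probe sets above background all lie further right in HARA-B4. Levels of different probe sets cannot be compared with each other.

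The promoters of EREG and EGFR are shown because these genes are the member with the largest difference and the receptor measured by the most probe sets. Each sequence is the 250 bases before an annotated transcription start, from RefSeq (GRCh38.p14), 5′ to 3′ on the plus strand. EREG lies at chr4:74364895-74365144 and EGFR, by the first of its annotated starts in the table, at chr7:55018767-55019016. Capitals mark matches on either strand to the GC box GGGCGG, the TATA box TATAAA or the CCAAT box CCAAT.
EREG: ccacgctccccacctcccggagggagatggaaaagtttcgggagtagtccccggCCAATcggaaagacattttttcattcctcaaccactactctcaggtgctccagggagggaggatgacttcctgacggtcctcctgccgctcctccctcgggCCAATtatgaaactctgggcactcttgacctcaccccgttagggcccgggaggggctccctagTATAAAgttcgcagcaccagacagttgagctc
EGFR: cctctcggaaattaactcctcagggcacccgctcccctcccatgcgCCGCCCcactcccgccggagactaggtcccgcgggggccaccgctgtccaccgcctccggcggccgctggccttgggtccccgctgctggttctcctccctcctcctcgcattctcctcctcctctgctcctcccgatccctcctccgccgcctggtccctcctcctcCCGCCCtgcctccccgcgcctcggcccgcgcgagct

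The EREG window held a TATA box that began 32 bases before the start and CCAAT boxes that began 95 and 196 bases before it. The EGFR window held no TATA box and had GC boxes that began 36 and 204 bases before the start. Over 35116 windows of the same length, 10.7% held the TATA box, 42.6% the GC box and 32.0% the CCAAT box. The EREG window had 11 CpG dinucleotides and the EGFR window 25, where the median of all windows was 11. Neither window matched the AP-1 motif TGANTCA (6.57% of windows) or the cyclic AMP response element TGACGTCA (1.65%). The matches do not overlap each other in these windows. Among the ligand genes that lie next to EREG on chromosome 4, the windows of AREG and EPGN also held a TATA box, each beginning 29 bases before the start, and that of BTC did not. The other annotated EGFR start in the table gave a different window, with AP-1 matches beginning 136 and 232 bases and TATA boxes 36 and 146 bases before it, no GC box and 1 CpG. The array values do not say which start is used, and a match is a run of letters and not a measured binding site.

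Among the receptors, EGFR was the higher in HARA-B4. Its main probe set, the one with the highest mean signal, read 1014 in HARA-B4 and 660 in HARA, a log2 difference of 0.62 or 1.54-fold. The other 4 EGFR probe sets above background read 854, 577, 113 and 69.6 in HARA-B4, against 568, 423, 74.6 and 60.4 in HARA. All 5 were higher in HARA-B4, with differences from 0.20 to 0.62 and an SD among them of 0.18. The remaining 4 probe sets of EGFR were below background on both arrays, and another of them, at 16.5 in HARA-B4 and 27.1 in HARA, came close to it in HARA. Of all genes above background on at least 1 array, 9.19% were higher in HARA-B4 by as much as EGFR or more.

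ERBB2, the preferred partner of the other receptors, had a signal of 105 in HARA-B4 and 156 in HARA on the only probe set above background, a difference of -0.57. ERBB2 was thus 1.48-fold lower in HARA-B4 by that probe set, and 11.6% of genes were lower by as much or more. Its other 2 probe sets were below background on both arrays.

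ERBB3, the receptor with the weak kinase, had signals of 91.4 and 52.1 in HARA-B4, against 129 and 73.5 in HARA, by the pair of probe sets that passed background on each array. The differences were -0.50 and -0.50, so these 2 probe sets gave nearly the same value, and 14.0% of genes were lower by as much or more. A further probe set was below background in HARA-B4, at 23.2, and above it in HARA, at 44.0, and the other 2 were below background on both arrays. The receptors therefore changed unequally between the arrays: the EGFR difference exceeded that of ERBB2 by 1.19 and that of ERBB3 by 1.12 on the log2 scale.

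**Figure D2:**
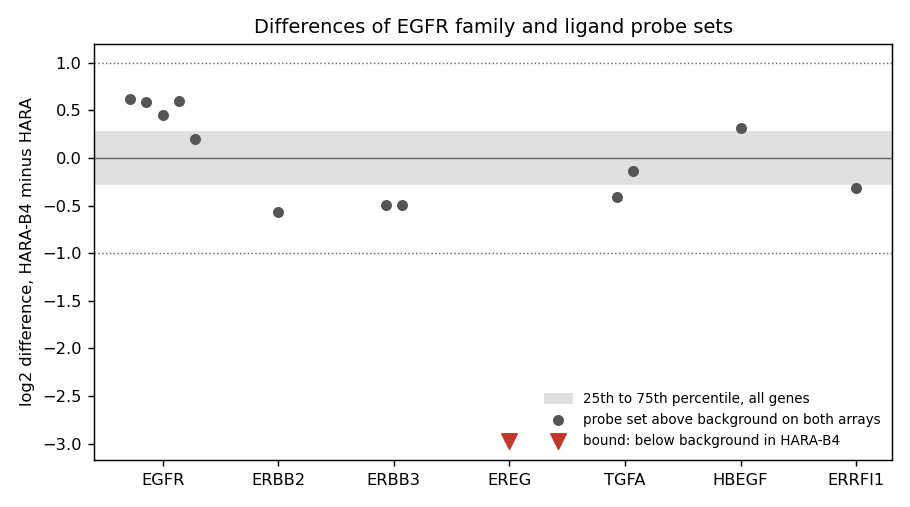
Log2 difference (HARA-B4 minus HARA) of each member probe set above background on both arrays, with EREG as a bound of -2.97, the grey band from the 25th to the 75th percentile of all genes (-0.27 to 0.28) and dotted lines at 2-fold. The EGFR points run from 0.20 to 0.62, and ERBB2 and ERBB3 lie at -0.57 and -0.50; BTC was below background and is not plotted.

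Among the ligands, EREG (epiregulin), which binds EGFR and ERBB4, gave the largest difference. Its main probe set had a signal of 3.66 in HARA-B4 and 213 in HARA. With the HARA-B4 value set to background, EREG was at least 7.84-fold lower in HARA-B4 (bound of -2.97). Its other probe set was below background on both arrays, at 2.37 in HARA-B4 and 5.33 in HARA, so the difference rests on 1 probe set. Only 22 of the 11486 genes, or 0.192%, were lower by that bound or more, EREG included. In RNA of whole cultures, fewer cells with the transcript and less transcript per cell cannot be told apart.

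TGFA, transforming growth factor alpha, had signals of 232 and 34.7 in HARA-B4, against 308 and 38.2 in HARA, by the pair that passed background. The differences were -0.41 and -0.14, the second within the middle range of all genes. By the first, 17.8% of genes were lower by as much or more. The remaining TGFA probe set was below background on both arrays.

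HBEGF, the heparin-binding ligand, lay close to background on both arrays. Its signal was 43.0 in HARA-B4 and 34.6 in HARA (0.31) on one probe set, and 22.6% of genes were higher by as much or more. On another probe set the HBEGF signal was 34.8 in HARA-B4 and 25.9 in HARA, which is just below background. The other 2 HBEGF probe sets were below background on both arrays, so the level of HBEGF limits what its difference can show.

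BTC (betacellulin) was below background on both arrays, with signals of 8.24 and 2.22 in HARA-B4, against 9.23 and 7.99 in HARA, and gets no fold. ERRFI1 (MIG6), a feedback inhibitor that binds the EGFR kinase and is induced by EGFR signalling, had a signal of 282 in HARA-B4 and 351 in HARA on its only probe set. Its difference of -0.32 lies just outside the middle range of all genes, and 22.9% of genes were lower by as much or more.

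Each list count below stands beside the shares over all genes above background on at least 1 array, 3.62% higher and 4.21% lower at 2-fold. Outside the member list, the family has 6 further receptors and ligands, namely ERBB4, EGF and the neuregulin genes NRG1, NRG2, NRG3 and NRG4. Above background were 4 of them, and 0 reached 2-fold on the higher side and 1 on the lower side (median difference -0.02). The lower gene was ERBB4, the other receptor for EREG, HBEGF and BTC, at 14.2 and 8.56 in HARA-B4, against 89.1 and 39.2 in HARA, on its probe sets above background in HARA. ERBB4 was below background in HARA-B4 on all 4 of its probe sets and at least 3.28-fold lower there, but its bound was -0.71, under 2-fold, when the background level was 1 higher on the log2 scale. EGF was below background on both arrays. NRG1, a ligand of ERBB3 and ERBB4 that is named here after its values were seen, was above background on 5 of 6 probe sets, and those differed by -0.86 to -0.07, all lower in HARA-B4. Its main probe set read 4301 in HARA-B4 and 5075 in HARA.

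Genes tied to the release or maturation of the ligands, inhibitors included, differed in both directions. Of 13, 11 were above background, and 1 reached 2-fold on the higher side and 0 on the lower side (median difference 0.22). In that list CD9 (0.78), RHBDF1 (0.73), ADAM15 (0.48) and ADAM17 (0.40) had positive differences outside the middle range of all genes, all under 2-fold. ADAM10 (-0.64), RHBDD1 (-0.43) and RHBDF2 (-0.42) had negative ones, also under 2-fold. The gene past 2-fold was TIMP3, an inhibitor of ADAM17, at 74.6 in HARA-B4 and 33.7 in HARA (1.15). Its other 3 probe sets read 66.7, 74.9 and 109 in HARA-B4, against 37.4, 6.11 and 11.6 in HARA, so TIMP3 was higher on all 4. With the higher background its value was 0.46, and with log2(signal + 16) it was 0.87, both under 2-fold.

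Among 34 adaptors and kinases of the core cascade, 26 had a named probe set and 25 were above background, and 1 reached 2-fold on the higher side and 2 on the lower side (median difference 0.19). GAB2, a docking protein that links receptors to PI3-kinase, had a signal of 9.42 in HARA-B4 and 191 in HARA on its only probe set, and was at least 7.03-fold lower in HARA-B4. SOS2, an exchange factor that activates RAS proteins, read 126 in HARA-B4 and 281 in HARA (-1.16), with -0.71 on another probe set. PIK3R1, the regulatory subunit of PI3-kinase, read 144 in HARA-B4 and 69.3 in HARA (1.06), but 0.52 on another probe set. It fell short of 2-fold with the mean of its probe sets (0.79) and with log2(signal + 16) (0.91).

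Negative regulators of the receptors differed in both directions. Of 13 above background, 2 reached 2-fold on the higher side and 2 on the lower side (median difference 0.22). SOCS4, known in cell culture to promote EGFR degradation, was at 271 in HARA-B4 and 987 in HARA (-1.87), and CBLB, a ubiquitin ligase for active EGFR, at 66.2 in HARA-B4 and 215 in HARA (-1.70). SOCS4 and SOS2 both lie on chromosome 14, and the part of location in their values was not tested. PTPRK, a receptor phosphatase reported to act on EGFR, was at 1774 in HARA-B4 and 742 in HARA (1.26). CBLC, an epithelial relative of CBLB, was at 66.4 in HARA-B4 and 26.5 in HARA, at least 2.45-fold higher, but under 2-fold with the higher background (0.29) and with log2(signal + 16) (0.93).

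Endocytosis and sorting genes carry bound receptors to recycling or degradation. Of 19 above background 0 reached 2-fold in either direction by their main probe sets, and the differences lay between -0.36 and 0.55 (median 0.17). When _x_at and _s_at probe sets were left out, the median was 0.015 over 15 genes and 1 gene passed 2-fold. The ubiquitin ligase ITCH, named after its values were seen, was higher in HARA-B4 on all 6 of its probe sets, by 0.26 on the main one and by up to 1.48 (83.3 in HARA-B4 and 29.8 in HARA), so its value depends on the probe set. The 2 with the highest mean signal were the clathrin adaptor subunit AP2M1 (2712 in HARA-B4 and 3489 in HARA) and the recycling GTPase RAB11A (2129 in HARA-B4 and 1947 in HARA).

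Among genes transcribed in answer to the MAPK cascade below the receptors, 22 were above background, and 0 reached 2-fold on the higher side and 4 on the lower side. Their median difference was -0.22, with 14 negative and 8 positive values, and lay between -0.35 and -0.092 under the alternatives. The largest positive differences by main probe sets were those of IER3 (0.82) and EGR1 (0.74), both under 2-fold. On another probe set JUN passed 2-fold on the higher side (1.13, against 0.51 on its main one). SPRED1 did so on the lower side (-1.15, against -0.62). Past 2-fold on the lower side were the phosphatases DUSP4 (71.3 in HARA-B4 and 303 in HARA) and DUSP6 (188 in HARA-B4 and 435 in HARA), the ETS factor ETV5 (75.5 in HARA-B4 and 210 in HARA) and PHLDA1 (840 in HARA-B4 and 1992 in HARA). Earlier results of these data already showed this group to be low, so it lends no independent support. Over the 6 lists together, of 94 genes above background, 4 reached 2-fold on the higher side and 9 on the lower side (median difference 0.12). The 9 include the 4 of the MAPK list, so this count is not independent of those earlier results either. For the counts of the 6 lists, singly and together, the shares over all genes above background on at least 1 array were 3.62% higher and 4.21% lower.

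**Figure D3:**
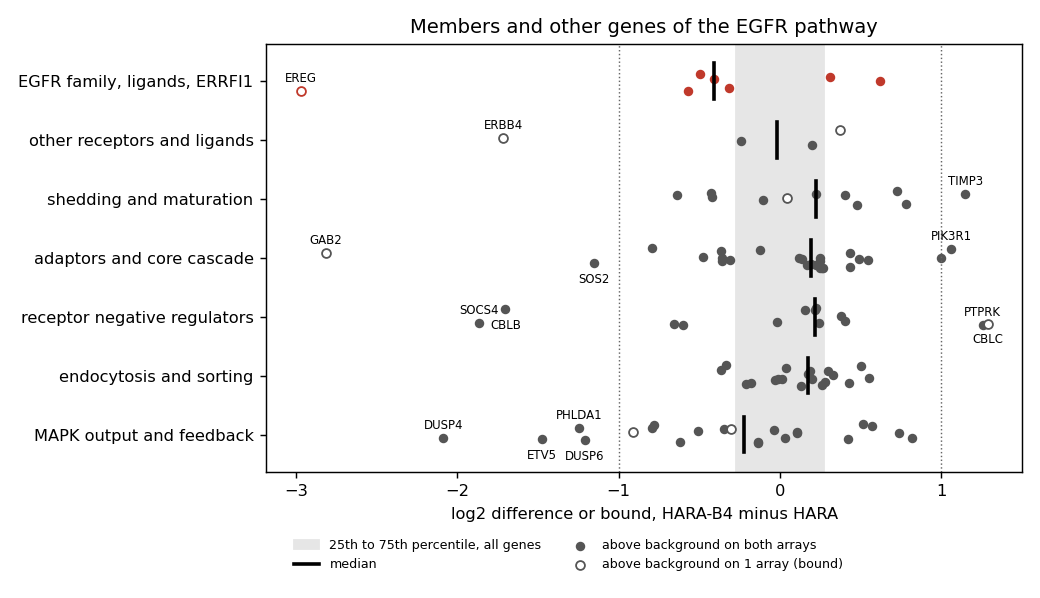
Log2 difference (HARA-B4 minus HARA) of each member (red) and of each other pathway gene above background, by list, with open circles as bounds, black bars as medians and the grey band as the 25th to 75th percentile of all genes. The members' median is -0.41, the MAPK output list's -0.22 and the other lists' from -0.02 to 0.22, and every gene past the dotted 2-fold lines is named.

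The neighbours of each member on its chromosome were compared with it in RefSeq gene order. EPGN, EREG, AREG and BTC follow each other on chromosome 4. Of the 10 nearest protein-coding genes with a named probe set around EREG, 3 were above background, and all 3 were lower in HARA-B4. MTHFD2L, a mitochondrial folate enzyme gene that lies just beyond EPGN, had a signal of 108 in HARA-B4 and 314 in HARA (-1.54). RCHY1 and THAP6, on the far side of BTC, differed by -0.48 and -0.17. The chemokine genes CXCL2, CXCL3, CXCL5 and PPBP nearby were below background on both arrays, so few genes measure this stretch. The part of the neighbouring differences in the EREG value was not tested.

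EGFR had 7 neighbours above background, with a median difference of 0.27, and 0 of them reached 2-fold. Among these, COBL and POM121L12 were above background in HARA-B4 only, so their values are bounds. The nearest on one side, LANCL2, was at 250 in HARA-B4 and 168 in HARA (0.58), close to the EGFR value, while VOPP1 next to it differed by 0.12. GRB10, on the other side, differed most and in the opposite direction, at 64.6 in HARA-B4 and 115 in HARA (-0.83). The 4 neighbours of ERBB2 above background had a median of 0.39, against -0.57 for ERBB2. STARD3 was lower in HARA-B4 as ERBB2 was (-0.32), and the other 3 were higher. GRB7, an adaptor gene 2 places from ERBB2, was at 84.3 in HARA-B4 and 42.3 in HARA (0.996), just short of 2-fold. Around ERBB3 the median was -0.19 over 9 genes with 1 at least 2-fold lower, IKZF4 (-1.07). IKZF4 read 30.1 in HARA-B4, just above background, and 63.2 in HARA. Around HBEGF, TGFA and ERRFI1 the medians were 0.07, -0.04 and 0.04, and 0 of those neighbours reached 2-fold.

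**Figure D4:**
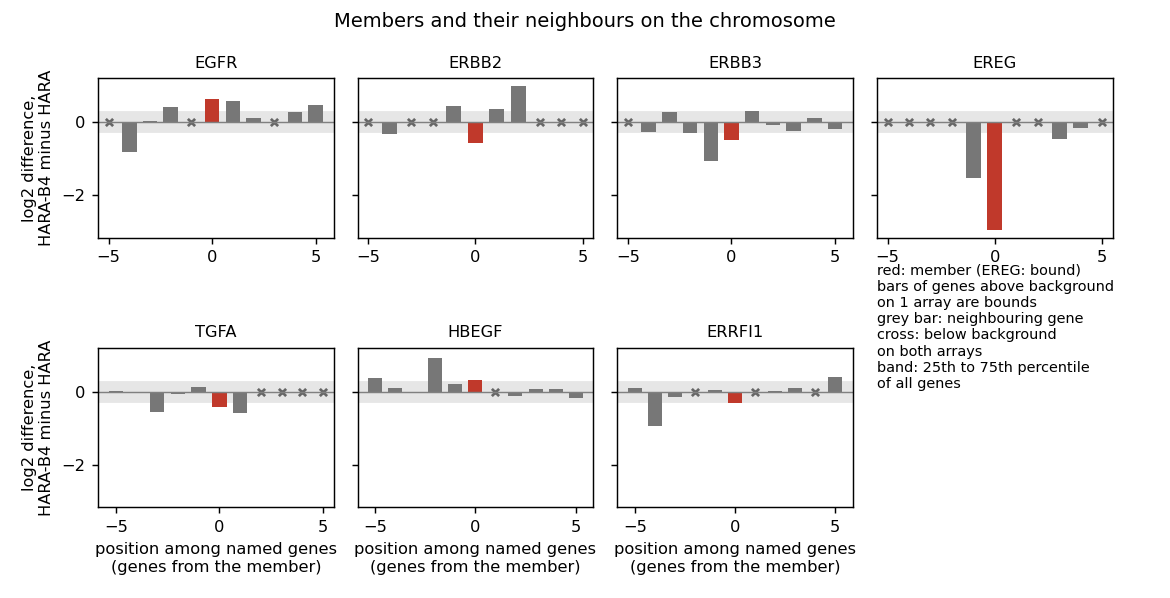
Log2 difference (HARA-B4 minus HARA) of each member (red, at 0 on the horizontal axis) and of the 5 nearest named protein-coding genes on each side (grey), with crosses for genes below background on both arrays. EREG (bound of -2.97) stands beside MTHFD2L at -1.54, EGFR (0.62) beside LANCL2 at 0.58, and ERBB2 (-0.57) beside neighbours of which GRB7 is at 0.996.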

How the data were processed

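Total RNA of HARA-B4 and HARA was measured on 1 Affymetrix array each. The deposited values are linear intensities, 1 per probe set for 54675 probe sets. They come from Affymetrix Expression Console, per the submitters' processing notes. No version, summary algorithm or detection call was given in the sources used here. Precision is limited by having 1 array per line. The values were used without further scaling, with Python 3.11.15, numpy 2.4.6, pandas 2.3.3 and statsmodels 0.14.6.

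Of 41097 probe sets with 1 symbol, 41043 were matched by Entrez ID to RefSeq (GRCh38.p14), which served for symbols, gene order and promoter sequences. For each gene the probe set of highest mean signal was used. A gene above background on 1 array only had its other value set to background, so its fold is a bound, and a gene below it on both has no fold. With 1 array per line no test was made.

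The members and the lists were chosen with earlier results of these data known, and the promoter motifs after the values were seen. Named genes are all members, and in each pathway list the 4 genes that differ most past 2-fold, or else the 2 of highest mean signal. GRB7, NRG1, ITCH, DSC3, IER3, EGR1, JUN, SPRED1, the shedding genes other than TIMP3 and the neighbours under 2-fold that are named were chosen after their values were seen. The calling procedure was also run on simulated arrays, both made from the HARA array, with changes added only to genes well above background. That setting puts no known change in genes nearer to background and holds no spread between cultures. It therefore does not bear on the calls of single members.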

Additional observations from a re-analysis of the deposited data

How the results depend on the processing

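The member counts were recomputed under 11 alternatives: quantile normalization, centring on the median, a lowess correction for level, the background raised by 1 or lowered by 0.5 on the log2 scale, the mean over probe sets, no _x_at or _s_at probe sets, log2(signal + 16), folds of 1.5 and 3, and agreement of all probe sets. EREG was the only member past the threshold on the lower side under each of them. Only 1 EREG probe set was above background on any array. The mean over probe sets, the agreement of all probe sets and the removal of _x_at and _s_at probe sets therefore could not change its call. The number of members past the threshold on the higher side was 0 except at 1.5-fold, where it was 1 (EGFR). The members' median ran from -0.45 to -0.32 under the 8 alternatives that change values, and that of all genes from -0.01 to 0.03. The bound of EREG ran from -3.47 to -1.97 and moves with the background level by construction. The difference of EGFR ran from 0.49 to 0.63. Of the other pathway genes, the 4 at least 2-fold higher became 2 with the background raised by 1 and 1 with log2(signal + 16), and the count of lower ones ran from 8 to 10. Under the same 8 alternatives the median of the other receptors and ligands ran from -0.48 to 0.0052, that of shedding genes from 0.041 to 0.40, that of adaptors from 0.15 to 0.24, that of negative regulators from 0.089 to 0.25, that of endocytosis genes from 0.015 to 0.18 and that of MAPK output genes from -0.35 to -0.092. Single values were followed for 20 genes, namely the members with a fold and the pathway genes already past 2-fold. Of 155 values, 139 moved by less than the within-gene probe set SD of 0.30, 16 moved further with the same sign and 0 changed sign. Pathway genes picked for large differences could hardly change sign under such shifts. For EREG, ERBB4, GAB2 and CBLC the sign was fixed wherever the lower signal was replaced by background. A changed background level left genes that stayed above it on both arrays unchanged by construction. Centring shifted all such genes by the same small amount. ERBB2 and ERRFI1 had 1 probe set above background, so the mean over probe sets could not change them. ERBB2 had no value without _x_at and _s_at probe sets. Many of the 139 values could therefore hardly move. The lack of sign changes bears mainly on the members other than EREG, and there on the remaining alternatives. No paired analysis was possible because each line has 1 array. HBEGF and BTC are limited by signals near or below background.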
